A study of Homo sapiens with 9 samples.

Results

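The bile acid receptor FXR, encoded by NR1H4, was followed in HT-29 cells together with 9 genes of its circuit and of the intestinal nuclear receptor network. The 10 genes were NR1H4, NR0B2, FGF19, FABP6, SLC10A2, NR1I2, VDR, HNF4A, NR5A2 and RXRA, out of 23284 gene symbols in the files. They were chosen by name, with earlier results of these data known. NR1H4 was put at their head because its level was strongly lower at 5 µM. The difference between 5 and 0 µM is therefore given below as a description and was not tested for these genes. HT-29 is an established line of colon cancer cells, and 5-Aza (5-aza-deoxycytidine) is a cytidine analogue that is built into DNA, where it traps DNA methyltransferases. Monolayers were given DMSO vehicle alone (0 µM), 5 µM 5-Aza or 10 µM 5-Aza for 5 days, with 3 replicates labelled biological in each group. Messenger RNA was purified from the total RNA of each dish and sequenced as paired-end libraries. All libraries came from 1 cancer line, so the samples hold no normal gut epithelium and no liver.

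FXR is a nuclear receptor that binds bile acids and acts on DNA as a partner of RXRA, the common partner of many such receptors. In ileal cells it is known to induce FGF19, a hormone that lowers bile acid synthesis in the liver through the receptor FGFR4 with KLB, and FABP6, which carries bile acids within the cell. It also induces NR0B2 (SHP), an orphan receptor without a DNA-binding domain that represses other receptors, among them NR5A2 (LRH-1) and HNF4A. SLC10A2 takes bile acids up at the ileal brush border, SLC51A with SLC51B lets them out on the blood side, and NR1I2 (PXR) and VDR can also sense some bile acids.

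The values are FPKM, fragments per kilobase of transcript scaled to the library, on a scale whose sum over a library was 3.69e+09 to 5.91e+09, so they serve as relative levels and can be compared between genes per length. The number of symbols above 0 was 16373 to 16958 in the control libraries, 18761 to 18957 at 5 µM and 17114 to 17592 at 10 µM. The files give no read totals, but low values rise in steps of whole fragments. At 12 microRNA genes of 110 nucleotides the smallest value above 0 in each library was taken as 1 fragment, which was not tested. All 46 values above 0, those smallest ones included, were then whole within 0.01 of a fragment. These steps put the depth term, relative to control replicate 1, at 1 to 2.14 in control, 2.29 to 2.57 at 5 µM and 1.27 to 2.01 at 10 µM. By this estimate all 5 µM libraries were deeper than all others. Depth bears on the symbols above 0, on genes at 0 in control and on the marker sums below, and its part in them was not tested. All 9 intestinal epithelium markers, among them EPCAM, VIL1 and CDX2, were above 0 in every library. Their summed level was 82850311 to 99288157 FPKM in control, 35201192 to 39862820 at 5 µM and 27543761 to 48296640 at 10 µM, so it was lower in every treated library. Of 4 ileal enterocyte markers, SLC10A2 and APOA4 were listed at 0 in all control libraries, while FABP6 and SI were above 0 in all of them. The sum of the 4 was 12619 to 15719 FPKM in control, 4011 to 11347 at 5 µM and 6490 to 9839 at 10 µM, so it was also lower in every treated library. The summed level of 3 leukocyte markers was 122085 to 128554 FPKM in control, 654473 to 692322 at 5 µM and 191711 to 344601 at 10 µM, with CD3E listed at 0 in all controls. Those of 4 fibroblast markers (5831 to 9138, 32267 to 45146 and 18012 to 25220) and of 5 hepatocyte markers (1062410 to 1219151, 1962119 to 2251415 and 1095150 to 1506920, with ALB, APOA2 and F9 listed at 0 in all controls) were also highest at 5 µM, and so were those of 3 endothelial markers (1901 to 5031, 9786 to 12404 and 3267 to 3588). The part of these cell type markers in the results below was not tested. The cultures were of 1 cell line, so these sums do not measure amounts of other cell types. In control, 1 of the 3 leukocyte markers and 2 of the 5 hepatocyte markers were above 0 in all libraries, so those sums rest on few genes. In bulk RNA, a change in some of the cells and a change in all of them cannot be told apart.

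The start regions of NR1H4, HNF4A and NR5A2 are printed because these 3 receptor genes had lower levels in treated libraries and their start regions differ in CpG, the dinucleotide that DNA methyltransferases act on. The windows are RefSeq sequence of GRCh38.p14, from 250 bases before to 50 bases after each start, on the strand of the gene, with every CpG in capitals. HNF4A and NR5A2 have 2 listed starts each, here numbered in the order of their coordinates. For NR1H4 only 1 start is listed, which need not be the most upstream start of the gene. Other starts were not examined, and whether transcripts in these cells begin at the printed ones was not tested.
NR1H4, chr12:100503110-100503409, plus strand: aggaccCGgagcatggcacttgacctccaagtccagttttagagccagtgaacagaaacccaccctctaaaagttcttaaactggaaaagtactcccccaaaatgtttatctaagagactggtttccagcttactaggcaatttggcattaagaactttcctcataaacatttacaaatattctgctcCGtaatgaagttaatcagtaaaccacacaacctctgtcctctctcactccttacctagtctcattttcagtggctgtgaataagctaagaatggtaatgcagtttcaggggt
HNF4A start 1, chr20:44355449-44355748, plus strand: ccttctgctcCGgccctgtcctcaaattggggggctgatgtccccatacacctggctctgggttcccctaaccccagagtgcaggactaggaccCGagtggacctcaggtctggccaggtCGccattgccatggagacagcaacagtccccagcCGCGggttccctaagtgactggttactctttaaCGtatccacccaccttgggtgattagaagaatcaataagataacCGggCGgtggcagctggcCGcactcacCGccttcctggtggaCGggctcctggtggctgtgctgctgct
HNF4A start 2, chr20:44400989-44401288, plus strand: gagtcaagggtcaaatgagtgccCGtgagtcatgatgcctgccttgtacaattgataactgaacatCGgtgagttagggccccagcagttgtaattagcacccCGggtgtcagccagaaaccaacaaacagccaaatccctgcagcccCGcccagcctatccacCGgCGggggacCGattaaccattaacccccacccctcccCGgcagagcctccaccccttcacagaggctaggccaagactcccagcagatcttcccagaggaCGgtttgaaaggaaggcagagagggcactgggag
NR5A2 start 1, chr1:200027460-200027759, plus strand: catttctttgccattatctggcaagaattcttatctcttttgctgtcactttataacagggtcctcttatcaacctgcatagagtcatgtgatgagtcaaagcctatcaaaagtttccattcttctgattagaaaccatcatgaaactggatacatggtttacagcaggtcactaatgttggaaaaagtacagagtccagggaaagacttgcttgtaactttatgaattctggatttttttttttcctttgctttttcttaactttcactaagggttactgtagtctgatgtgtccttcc
NR5A2 start 2, chr1:200042341-200042640, plus strand: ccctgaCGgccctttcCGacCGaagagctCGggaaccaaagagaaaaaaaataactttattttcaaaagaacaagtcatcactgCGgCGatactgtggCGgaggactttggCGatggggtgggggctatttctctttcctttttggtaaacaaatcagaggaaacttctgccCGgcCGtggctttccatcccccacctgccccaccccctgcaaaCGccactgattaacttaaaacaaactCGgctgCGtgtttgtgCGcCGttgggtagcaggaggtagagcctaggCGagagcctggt

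The NR1H4 window holds 2 CpG, and 89.0% of the 35116 windows in the table hold at least as many, against a median of 14. The HNF4A windows hold 11 and 9 CpG, and the NR5A2 windows 0 and 16. Of the other genes, RXRA has 1 window with 65 CpG, a number reached by 0.0313% of windows, and a second start with 8. The windows of NR1I2 hold 5 and 0, that of FABP6 3 and that of SLC10A2 4. FGF19, NR0B2 and VDR were not matched in the table, so 7 of the 10 genes had a window. Letters of the kind these receptors bind were then searched on both strands. AGGTCA, the half-site shared by many nuclear receptors, occurs once in the NR1H4 window and once in that of NR5A2 start 1, and 13.8% of all windows hold it. TCAAGGTCA, which contains AGGTCA and is the form bound by NR5A2, was in none of the members' windows and in 0.353% of all. The core of the inverted repeat of AGGTCA with a single base between the copies (IR-1), the form bound by FXR with RXRA, was in none of them and in 0.0114% of all. DNA methylation was not measured in these files.

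In the control cells the order of the levels was FGF19, RXRA, HNF4A, VDR, NR5A2, FABP6, NR1H4, NR0B2, NR1I2 and SLC10A2. Neighbours in this order overlapped between replicates only among FABP6, NR1H4 and NR0B2. FGF19 was thus the most abundant of the 10 genes per length, while FXR itself lay far lower. At 5 µM the order was RXRA, FGF19, HNF4A, VDR, NR5A2, NR0B2, FABP6, NR1H4, NR1I2 and SLC10A2, where FGF19 overlapped with HNF4A, FABP6 with NR1H4 and NR1H4 with NR1I2. At 10 µM the order was RXRA, FGF19, HNF4A, VDR, NR5A2, NR0B2, FABP6, NR1H4, NR1I2 and SLC10A2, where HNF4A overlapped with VDR and NR1H4 with NR1I2.

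**Figure D1:**
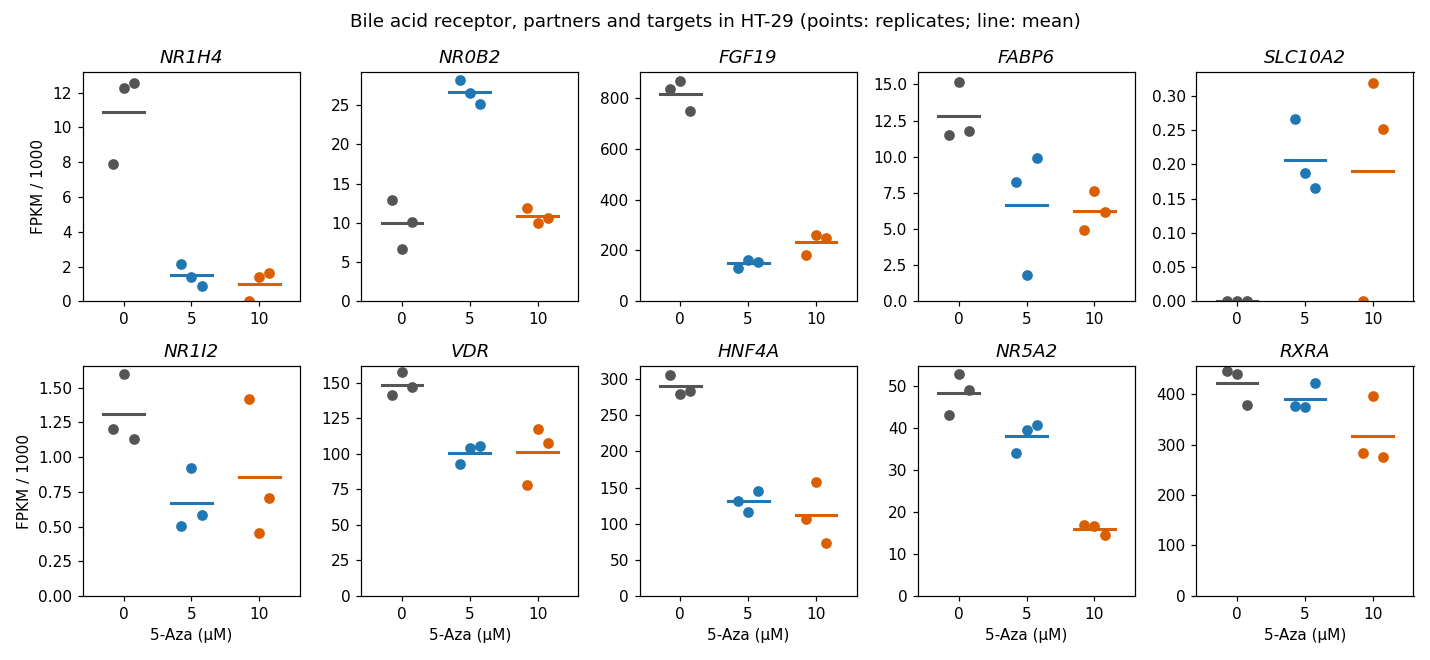
Level of each of the 10 genes in FPKM / 1000 (each panel on its own scale from 0) against the dose of 5-Aza in µM, with 1 point per replicate and a line at the mean of 3. NR1H4 and FGF19 lie below all control points at both doses, NR0B2 stands above both other groups at 5 µM, and NR5A2 is lowest at 10 µM.

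NR1H4 (chr12:100867486-100958192, plus strand; all gene positions are from the GRCh37 annotation) was measured at 7894, 12260 and 12570 FPKM in control replicates 1 to 3. At 5 µM it was 2147, 1422 and 902 FPKM, and at 10 µM it was listed at 0 in replicate 1 and at 1387 and 1637 in the other two. Every treated library was below every control library, while the 2 doses overlapped. The mean was 10908 ± 2615 FPKM in control and 1491 ± 625 at 5 µM (SD, n = 3), a ratio of 0.137 and a log2 difference of -2.93 (SE 0.42). These values rest on few molecules. The steps correspond to about 17, 40 and 58 fragments in control, 11, 7 and 5 at 5 µM, and 0, 6 and 6 at 10 µM, with 5 of the 8 values above 0 whole within 0.05 of a fragment. A second estimate, from annotated length, put them at 24.1 to 81.9 in control and at most 15.8 in a treated library, so the absolute numbers are approximate. The log2 difference between 10 and 0 µM was -6.34 (SE 2.66) with all libraries, where the ratio of means was 0.0924, and -2.82 without 10 µM replicate 1, whose 0 decides the size. Between 10 and 5 µM it was -3.42 (SE 2.72), and 0.10 without that library. NR1H4 was in both fits with 10 µM, was called in neither, and is among the 10 genes counted below. No test is read from these fits for NR1H4 either, since those comparisons share libraries with the one it was chosen on.

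RXRA (chr9:137208944-137332431, plus strand), a partner of FXR on DNA, was much more abundant than NR1H4 in every library. Its values were 446405, 439149 and 377764 FPKM in control, 375871, 373532 and 421103 at 5 µM, and 282555, 395891 and 274649 at 10 µM. Both treated groups overlapped with control. The log2 difference was -0.11 (SE 0.09) between 5 and 0 µM, and between 10 and 0 µM it was -0.42 (SE 0.17), which did not pass the test (limma, adjusted p = 0.129). Between 10 and 5 µM it was -0.31 (SE 0.17, limma adjusted p = 0.289).

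FGF19 (chr11:69513006-69518790, minus strand), the hormone that FXR induces, was the most abundant of the 10 genes in control. Control replicates gave 835380, 864543 and 746075 FPKM, 5 µM replicates 132619, 162793 and 156306, and 10 µM replicates 182411, 261446 and 250358. All treated libraries lay below all controls, and all 10 µM libraries lay above all 5 µM libraries. The means were 815333 ± 61726, 150573 ± 15883 and 231405 ± 42791 FPKM (SD, n = 3), and an estimated 470 to 3230 fragments per library stood behind them. The log2 difference between 5 and 0 µM was -2.44 (SE 0.10). At 10 µM FGF19 fell by 1.83 on the log2 scale against control (SE 0.17, limma adjusted p = 0.0032). The difference of 0.61 (SE 0.17) between 10 and 5 µM did not pass the test (limma, adjusted p = 0.0947).

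NR0B2 (chr1:27237980-27240466, minus strand), the repressor SHP, had its highest level at 5 µM. Its values were 12976, 6684 and 10128 FPKM in control, 28170, 26491 and 25211 at 5 µM and 11911, 10050 and 10591 at 10 µM. Thus the 5 µM libraries lay above all 6 others, while control and 10 µM overlapped. All 9 values were whole fragments, 14 to 30 per control library, 84 to 94 at 5 µM and 21 to 28 at 10 µM. The log2 difference between 5 and 0 µM was 1.47 (SE 0.26), and between 10 and 0 µM it was 0.18 (SE 0.32, limma adjusted p = 0.703), with the sign turning to -0.083 without control replicate 2. NR0B2 fell from 5 to 10 µM, with a log2 difference of -1.30 (SE 0.19, limma adjusted p = 0.0107). Leaving out any one of the 5 µM libraries put its adjusted p between 0.0534 and 0.0632, above the threshold of 0.05.

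FABP6 (chr5:159614374-159665742, plus strand), the cytoplasmic bile acid carrier, was measured at 11506, 15196 and 11757 FPKM in control, 8242, 1830 and 9888 at 5 µM, and 4938, 7602 and 6147 at 10 µM. All treated libraries lay below all controls, with 5 µM replicate 2 far below its group. The values correspond to 11 to 24 fragments in control, 4 to 24 at 5 µM and 6 to 15 at 10 µM, with 6 of 9 whole within 0.05, and the estimate from length was lower, at 6.4 to 13.9 in control. The log2 difference between 5 and 0 µM was -1.26 (SE 0.65). Between 10 and 0 µM it was -1.05 (SE 0.30), which just missed the test (limma, adjusted p = 0.0563) and passed it without 10 µM replicate 2 (adjusted p = 0.0263, limma). Between 10 and 5 µM the difference was 0.21 (SE 0.65, limma adjusted p = 0.858), and -0.56 without 5 µM replicate 2.

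SLC10A2 (chr13:103696348-103718767, minus strand), the ileal bile acid uptake carrier, was at the limit of detection throughout. It was listed at 0 in the 3 control libraries, at 267, 187 and 166 FPKM at 5 µM, and at 0, 319 and 251 FPKM at 10 µM. These are 3, 2 and 2 fragments at 5 µM and 0, 3 and 2 at 10 µM, so no library rose above a floor of 3 fragments and no fold is given. Its difference between 10 and 0 µM did not pass the test (limma, adjusted p = 0.208).

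**Figure D2:**
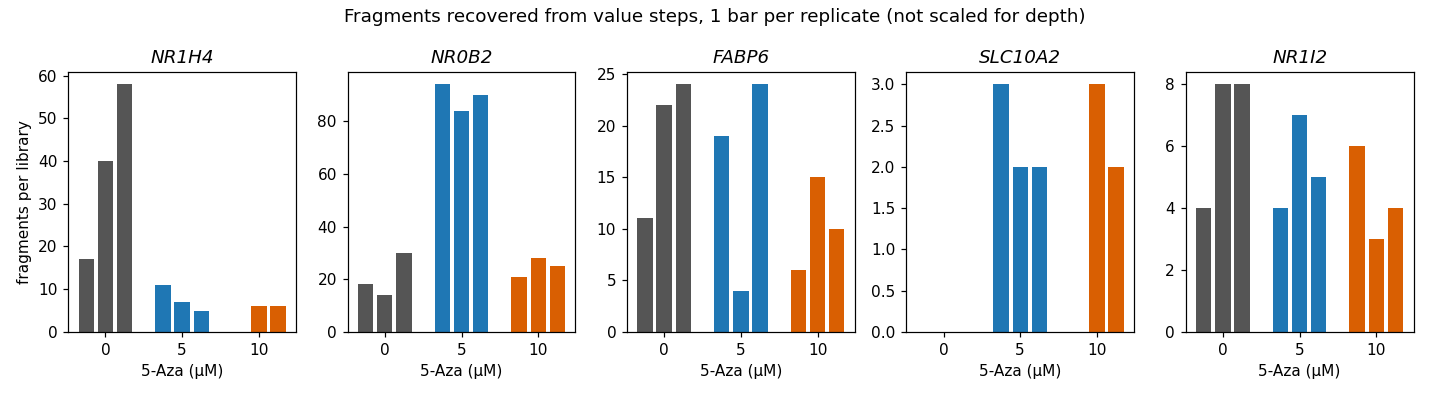
Whole fragments per library for the 5 low genes (NR1H4, NR0B2, FABP6, SLC10A2, NR1I2), recovered from the steps of the values, with 1 bar per replicate by dose in µM and no scaling for depth (NR1H4 and FABP6 are approximate). NR1H4 has 17 to 58 fragments in control and at most 11 in a treated library, while NR0B2 has 84 to 94 at 5 µM and SLC10A2 never more than 3.

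HNF4A (chr20:42984339-43061485, plus strand), a receptor that maintains the epithelial programme of gut and liver, was measured at 306262, 279943 and 284235 FPKM in control. It was 131331, 116058 and 145260 at 5 µM and 106997, 157377 and 73050 at 10 µM, and all treated libraries lay below all controls. The log2 difference between 5 and 0 µM was -1.15 (SE 0.10). At 10 µM HNF4A fell by 1.44 on the log2 scale against control (SE 0.26, limma adjusted p = 0.0172), with an estimated 643 to 3139 fragments per library over the 3 groups. The call was lost without control replicate 1, control replicate 2 or 10 µM replicate 1, with adjusted p from limma of 0.0585, 0.0634 and 0.064. The doses overlapped and differed by -0.28 (SE 0.27, limma adjusted p = 0.549).

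NR5A2 (chr1:199996742-200146548, plus strand), the orphan receptor LRH-1 that acts on bile acid and steroid genes, had its lowest level at 10 µM. Control libraries gave 43046, 52821 and 49121 FPKM, 5 µM libraries 34033, 39578 and 40712, and 10 µM libraries 16870, 16660 and 14413. The 3 groups did not overlap, with 10 µM lowest. The log2 difference between 5 and 0 µM was -0.34 (SE 0.12). At 10 µM NR5A2 fell by 1.59 on the log2 scale against control (SE 0.18, limma adjusted p = 0.00556), and it fell by 1.25 against 5 µM (SE 0.17, limma adjusted p = 0.0097). The second of these calls was lost without 5 µM replicate 2 (adjusted p = 0.0534, limma) or replicate 3 (adjusted p = 0.067, limma).

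VDR (chr12:48235320-48336831, minus strand), the vitamin D receptor, was measured at 141173, 157458 and 147251 FPKM in control, 92724, 103840 and 105493 at 5 µM, and 77982, 117391 and 107770 at 10 µM. All treated libraries were below all controls and the doses overlapped. The log2 difference was -0.56 (SE 0.08) between 5 and 0 µM. At 10 µM it was -0.58 (SE 0.17) against control and did not pass the test (limma, adjusted p = 0.0635). NR1I2 (chr3:119499331-119537334, plus strand), the xenobiotic receptor PXR, was low, at 1205, 1597 and 1129 FPKM in control, 501, 922 and 585 at 5 µM and 1421, 450 and 708 at 10 µM. It had 3 to 8 fragments per library, so only a large difference could be seen. Its log2 difference was -1.0 (SE 0.48) between 5 and 0 µM and -0.75 (SE 0.67, limma adjusted p = 0.455) between 10 and 0 µM. Between 10 and 5 µM neither receptor passed the test, with differences of -0.01 (SE 0.18, limma adjusted p = 0.972) for VDR and 0.25 (SE 0.66, limma adjusted p = 0.831) for NR1I2.

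Counted over the 10 genes, 3 were past both thresholds, which were 0.05 for limma's adjusted p and 1 for the size of the log2 difference, in the lower direction between 5 and 0 µM, and 2 in the higher direction, of which SLC10A2 rests on at most 3 fragments. Among all 20051 genes fitted in that comparison 2.17% were called lower and 14.1% higher, and since this comparison chose NR1H4 nothing is read from the count. Replicates did not overlap for 7 of the genes in the lower direction and 2 in the higher, where 23.2% and 29.4% of all genes did so. Between 10 and 0 µM, 3 of the 10 were called lower (FGF19, HNF4A and NR5A2) and 0 higher, against 3.40% and 4.07% of 18928 genes. At an unadjusted p under 0.05 (limma, same fold) 0 were higher as well. Lower values without overlap were seen for 6 of the 10, against 26.7% of all genes. The median log2 difference of the 10 was -0.90 there, and -0.15 over all genes. NR1H4 is among the 6 and in this median. It was chosen as low against the same control libraries, so both figures are partly set by that choice. Between 10 and 5 µM, 2 were called lower (NR0B2 and NR5A2) and 0 higher, against 4.82% and 0.129% of 20085 genes. With an unadjusted p under 0.05 (limma, same fold) 0 were higher too. FGF19 was the 1 gene with higher values and no overlap, against 4.37% of all genes, and 2 had lower ones, against 25.3%. The medians were -0.30 for the 10 genes and -0.31 for all.

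The scaling of the libraries bears on the comparisons with 10 µM. Over genes above 0 in all 6 libraries the median log2 difference was -0.23 between 10 and 0 µM and -0.24 between 10 and 5 µM, and -0.04 between 5 and 0 µM. After median-of-ratios scaling the calls between 10 and 0 µM changed from 771 higher and 644 lower to 1124 higher and 286 lower. FGF19, HNF4A and NR5A2 were still called lower there, at -1.59, -1.20 and -1.36, and NR0B2 and NR5A2 between 10 and 5 µM at -1.06 and -1.01.

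**Figure D3:**
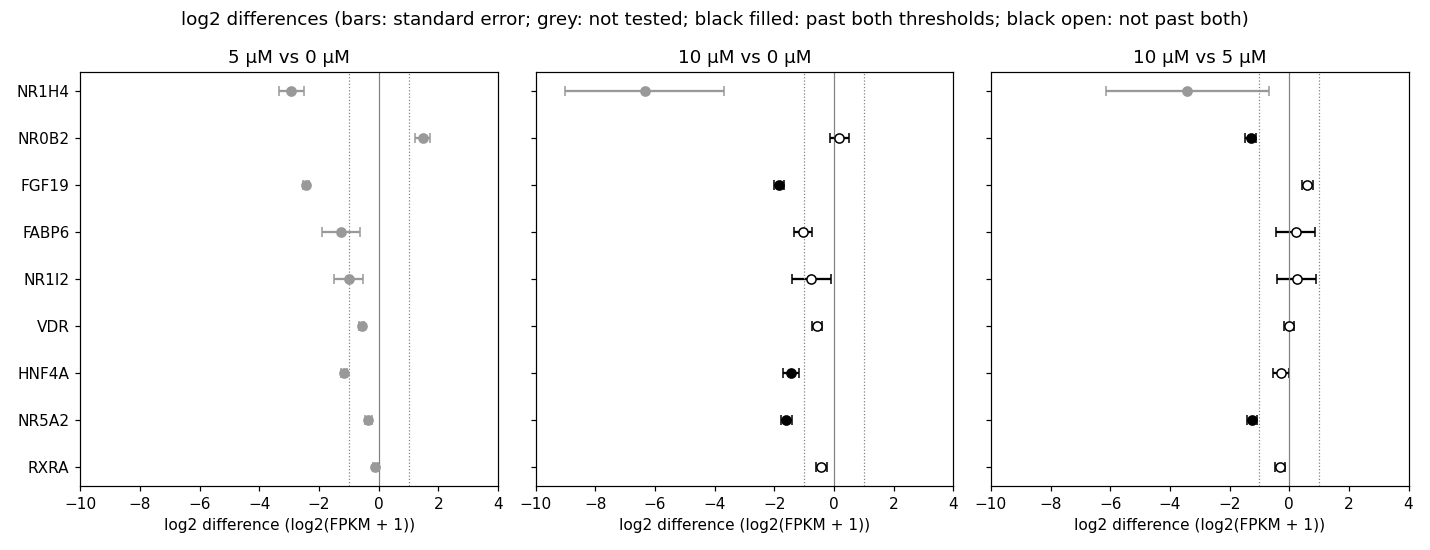
log2 differences with standard errors of 9 of the genes in the 3 comparisons (SLC10A2 is left out because it has at most 3 fragments per library), with grey points for differences that were not tested and black points for those tested by limma, filled where past both thresholds. FGF19, HNF4A and NR5A2 are filled between 10 and 0 µM, and NR0B2 and NR5A2 between 10 and 5 µM.

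A list of 22 other genes of bile acid synthesis, transport and signalling was read from the same fits. This list and those that follow were chosen with earlier results of these data known. Their counts and adjusted p are therefore not independent of that choice. Of 21 tested between 5 and 0 µM, 5 rose and 1 fell, against 14.1% and 2.17% of all genes. Over the 13 of its genes above 0 in all 9 libraries the median log2 difference was 0.41, and over all 15250 such genes it was -0.04. SLC51B, the smaller subunit of the basolateral bile acid exporter and a known FXR target, was measured at 107037, 95910 and 99764 FPKM in control, 530694, 620223 and 566413 at 5 µM and 242752, 287899 and 271966 at 10 µM. No 2 of the groups overlapped, and the gene rose by 2.50 (SE 0.08, limma adjusted p = 8.34e-05) at 5 µM and by 1.40 (SE 0.12, limma adjusted p = 0.00267) at 10 µM. It fell by 1.10 from 5 to 10 µM (SE 0.13, limma adjusted p = 0.00666), a call lost without 5 µM replicate 3 (adjusted p = 0.0568, limma) and under median-of-ratios scaling. SLC51B and FGF19, which FXR is known to induce in the ileum, thus lay on opposite sides of control at both doses. SLC51A, the other subunit, rose at 5 µM by 2.55 (SE 0.68, limma adjusted p = 0.0269) on 2 to 9 fragments per control library and 42 to 57 per 5 µM library. That call was lost in 4 of the 6 fits that left out 1 library, with adjusted p up to 0.0945 (limma).

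Further carriers and enzymes also rose at 5 µM. ABCC2, an apical exporter of conjugates, rose by 2.00 (SE 0.26, limma adjusted p = 0.00193), from a mean of 2089 ± 276 to 8320 ± 959 FPKM (SD, n = 3). SLC10A1, the bile acid uptake carrier of hepatocytes, rose by 1.62 (SE 0.33, limma adjusted p = 0.0108), on 5 to 12 fragments per control library and 31 to 46 at 5 µM. UGT2B4, which glucuronidates bile acids, was called higher (limma adjusted p = 0.0354) on 0, 2 and 0 fragments in control and 23, 18 and 20 at 5 µM, and the call was lost in 5 of the 6 fits without 1 library. FGFR4, the receptor of FGF19, was the gene of the list called lower. It was 312092, 276043 and 315180 FPKM in control, 117479, 96385 and 117411 at 5 µM, and 144791, 158616 and 152416 at 10 µM, with no overlap between any of the groups. It fell by 1.45 at 5 µM (SE 0.10, limma adjusted p = 0.000327), and at 10 µM the difference of -0.99 (SE 0.12, limma adjusted p = 0.0059) stayed short of the fold threshold. KLB, the co-receptor, had a difference of 0.72 (SE 0.37, limma adjusted p = 0.163) at 5 µM. ABCC3, the most abundant gene of the list, had a mean of 4383080 FPKM in control and 2202310 at 5 µM, without overlap. Its difference of -0.998 (SE 0.13, limma adjusted p = 0.00186) stayed just short of the fold threshold. Other genes short of the thresholds lay on both sides of control.

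Between 10 and 0 µM, 2 of 19 tested genes of the list rose and 0 fell (limma), against 4.07% and 3.40% of all genes. At an unadjusted p under 0.05 (limma, same fold) 0 were lower as well. Besides SLC51B the gene that rose was GPBAR1, the membrane bile acid receptor TGR5. It was 2604, 2821 and 2793 FPKM in control and 9736, 7693 and 6518 at 10 µM, with an estimated 4.0 to 9.2 fragments per control library. It rose by 1.52 (SE 0.35, limma adjusted p = 0.0318), and the call was lost in 5 of the 6 fits without 1 library (adjusted p up to 0.0977, limma). Between 10 and 5 µM SLC51B was the 1 gene called of 22 tested, where 4.82% of all genes were called lower and 0.129% higher. Over the 13 genes above 0 in all libraries the median was -0.02 between 10 and 0 µM and -0.18 between 10 and 5 µM, and over all such genes -0.23 and -0.22.

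**Figure D4:**
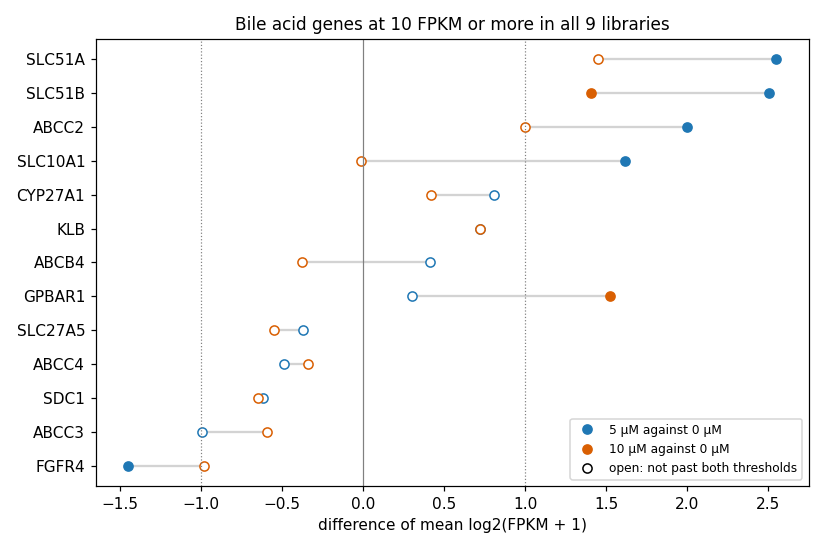
Differences of mean log2(FPKM + 1) from control at 5 µM (blue) and 10 µM (orange) for the 13 bile acid genes at 10 FPKM or more in all 9 libraries, with filled points past both thresholds and dotted lines at a log2 difference of 1 and -1. SLC51A, SLC51B, ABCC2 and SLC10A1 lie on the right at 5 µM, and FGFR4 lies farthest to the left.

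Of 13 target genes of PXR, VDR and related xenobiotic receptors, 5 rose at 5 µM and 0 fell (limma), against 14.1% and 2.17% of all genes. At an unadjusted p under 0.05 (limma, same fold) 0 were lower as well. Of the 5, GSTA1 was listed at 0 in all controls and could pass the filter only through the treated libraries. CYP1A1, a monooxygenase of the aryl hydrocarbon response, rose by 2.67 (SE 0.28, limma adjusted p = 0.000887), on an estimated 11.1 to 17.5 fragments per control library. CYP2B6 rose by 1.93 (SE 0.15, limma adjusted p = 0.000375), although reads of its pseudogene copy may have been counted with it. TRPV6, the calcium channel induced by VDR, rose by 1.47 (SE 0.09, limma adjusted p = 0.000238). CYP3A5, the most abundant gene of the list, had a mean of 3389700 FPKM in control and 1982793 at 5 µM, without overlap. Its difference of -0.76 (SE 0.15, limma adjusted p = 0.00843) stayed short of the fold threshold, while other genes short of it lay above control. CYP3A4 had a difference of -0.0015 (SE 0.30, limma adjusted p = 0.997). At 10 µM TRPV6 rose by 1.34 (SE 0.14, limma adjusted p = 0.00398), while CYP24A1, the vitamin D hydroxylase that is another VDR target, fell by 1.52 (SE 0.25, limma adjusted p = 0.0141; 0.062 without control replicate 2). CYP24A1 libraries were 52443, 56085 and 48953 FPKM in control, 56679, 59865 and 76998 at 5 µM and 20041, 23776 and 12768 at 10 µM, so the 10 µM libraries lay below all others. From 5 to 10 µM, 3 of the 13 genes fell, against 4.82% of all genes, namely CYP2B6, CYP24A1 and CYP1A1, with differences of -2.02, -1.81 and -1.46 (limma adjusted p of 0.00465, 0.0112 and 0.0214). The calls of CYP24A1 and CYP1A1 there were lost whenever a 5 µM library was left out.

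Among 16 transcription factors of gut and liver, 2 rose and 2 fell at 5 µM, against 14.1% and 2.17% of all genes, and 4 fell at 10 µM against control, where 3.40% of all genes did. HNF4G, the close relative of HNF4A, was 167987, 145089 and 140045 FPKM in control, 45005, 57332 and 48406 at 5 µM and 36175, 60604 and 32561 at 10 µM. It fell by 1.59 at 5 µM (SE 0.12, limma adjusted p = 0.000378), and it fell by 1.86 at 10 µM (SE 0.24, limma adjusted p = 0.00727), so both HNF4 receptors were below control at both doses. CDX1, an intestinal homeobox factor, rose at 5 µM by 2.14 (SE 0.21, limma adjusted p = 0.00073), a call lost when all 9 samples shared one fit, while its relative CDX2 fell by 1.38 at 10 µM (SE 0.20, limma adjusted p = 0.00996; 0.0505 without control replicate 2). CEBPB fell by 1.04 at 10 µM (SE 0.24, limma adjusted p = 0.0308), a call lost in 5 of the 6 fits without 1 library. Of 11 lipid and brush border genes linked to HNF4A, only TTR was called at 5 µM (1.68, SE 0.46, limma adjusted p = 0.0289). Among all genes 14.1% were called higher and 2.17% lower there. TTR had 3, 3 and 13 fragments in the control libraries, and its call was lost in 5 of the 6 fits without 1 library. Only 4 of the 11 were above 0 in all 9 libraries, so for most of the list only a large difference could be seen. Of 12 coregulators 0 were called by limma at 5 µM, against the same shares of all genes. At an unadjusted p under 0.05 (limma, same fold) 1 was higher there (PPARGC1A, named after its value was seen). At 10 µM 2 fell, against 3.40% of all genes. These were NRIP1 and NCOA3, with differences of -1.24 and -1.01 (limma adjusted p of 0.0163 and 0.0191). Both calls were lost without single libraries, in 3 and 5 of the 6 fits.

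Of 41 other nuclear receptors, 39 were tested at 5 µM, where 8 rose and 2 fell, against 14.1% and 2.17% of all genes. Of the 8, NR0B1, NR2E1 and PGR were listed at 0 in all controls, passed the filter only through the 5 µM libraries and rest on 9 to 29 fragments in all. The largest rises among genes above 0 in all libraries were those of NR3C1, the glucocorticoid receptor, by 4.78 (SE 0.50, limma adjusted p = 0.000919), and NR4A3 by 4.04 (SE 0.73, limma adjusted p = 0.00641), although the control libraries held an estimated 1.9 to 6.7 fragments of NR3C1 and 1.8 to 6.0 of NR4A3, so the sizes are uncertain. NR3C1 was 246, 163 and 414 FPKM in control, 5442, 8137 and 7876 at 5 µM and 387, 674 and 913 at 10 µM. It fell by 3.50 from 5 to 10 µM (SE 0.48, limma adjusted p = 0.0095), a call lost without 5 µM replicate 2 or 3, with adjusted p up to 0.0644 (limma). At 10 µM 5 of 35 tested receptors fell and 0 rose (limma), against 3.40% and 4.07% of all genes. At an unadjusted p under 0.05 (limma, same fold) 1 was higher. Those that fell include HNF4G, THRA, with a difference of -1.27 (SE 0.20, limma adjusted p = 0.0115; 0.0519 without 10 µM replicate 3), and PPARG, with -1.08 (SE 0.16, limma adjusted p = 0.0101). PPARG, with 703902 ± 21040 FPKM in control and 336484 ± 62358 at 10 µM (SD, n = 3), was no longer called after median-of-ratios scaling, without control replicate 2 or without 10 µM replicate 1.

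**Figure D5:**
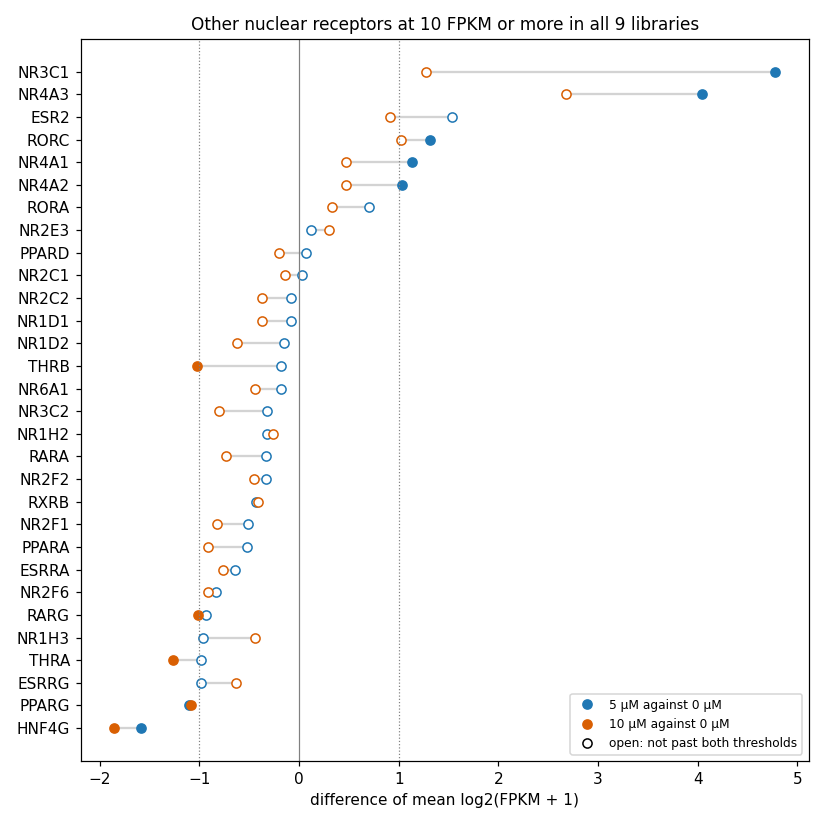
Differences of mean log2(FPKM + 1) from control at 5 µM (blue) and 10 µM (orange) for the 30 other nuclear receptors at 10 FPKM or more in all 9 libraries, with filled points past both thresholds. NR3C1 and NR4A3 lie far to the right at 5 µM, and HNF4G lies farthest to the left at both doses.

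Across the 9 libraries, the genes most like NR1H4 by Pearson's r of log2(FPKM + 1), among 15273 genes above 0 in all libraries, were MCEE (0.985), AKR1A1 (0.972), ALKBH4 (0.972), PLD3 (0.971) and SIPA1 (0.963). These values are a description over libraries that share dose groups and depth, and they turn on 10 µM replicate 1, where NR1H4 is 0. Without that library they were 0.910, 0.819, 0.755, 0.886 and 0.888.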

How the data were processed

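RNA was measured by RNA-Seq in 9 HT-29 cultures, 3 at each of 0, 5 and 10 µM 5-Aza, grouped by the sample labels. The authors filtered reads with FASTX-Toolkit, mapped them with TopHat to hg19 and computed FPKM per gene with Cufflinks, and the deposited files hold these FPKM values. The library kit does not mark strand, so antisense reads cannot be told apart. Repeated symbols (543, none of the 10 genes) were summed. Each pair of groups was fitted with limma 3.58.1 in R 4.3.3 on log2(FPKM + 1), the scale of all differences given, with an intensity trend and over genes reaching 10 in either group. A fragment is worth far more than the pseudocount of 1, so differences are inflated where a library is at 0. A call needed a p of 0.05 or less after Benjamini-Hochberg adjustment over all genes fitted and a log2 difference beyond 1 in size. The scripts were tested on simulated data. Fragments were recovered from value steps or, for abundant genes, estimated from annotated length, and cover counting error only. SLC51A and SLC51B stand in the files under the older symbols OSTalpha and OSTBETA. The members and lists were chosen with earlier results of these data known. Named from each list were all called bile acid genes and, in other lists, the 3 called genes with the largest difference per comparison among those above 0 in all 9 libraries. The 5 genes most correlated with NR1H4 were also named, and ABCC3, CYP3A4, CYP3A5, GSTA1, NR0B1, NR2E1 and PGR were named after their values were seen. A called gene of the transcription factor list is not reported here. Alternatives covered pseudocounts, filters, scaling, a fit of all 9 samples, a replicate block, repeated symbols and single libraries left out.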

Additional observations from a re-analysis of the deposited data

How the results depend on the processing

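Genes on few fragments carry counting error that the fit on log2 values does not model, and 3 replicates a group limit every call. Without a fold threshold, 7816 genes were called between 5 and 0 µM and 2857 between 10 and 0 µM. With a pseudocount of 1000, 1 of the 10 genes was called higher between 5 and 0 µM, since SLC10A2 was lost at 0.27. NR1H4 between 5 and 0 µM, a description only, was not past the threshold when all 9 samples shared one fit, where the scatter of its 10 µM values entered. Since NR1H4 was chosen on that comparison, nothing is read from its place against the threshold in any fit. Leaving out 1 library gave 565 to 2319 genes called between 10 and 0 µM, lowest without 10 µM replicate 3 and highest without 10 µM replicate 2. It gave 188 to 1937 between 10 and 5 µM, lowest without 5 µM replicate 3, and 0 to 2 of the 10 genes called lower there. Under a replicate block 418 genes and 0 of the 10 genes were called between 10 and 5 µM, where NR0B2 and NR5A2 had limma adjusted p of 0.054 and 0.0513, and no other call on the 10 genes changed. The numbers share only a label, since deviations from group means correlated at -0.07 to 0.09 for same-numbered and -0.16 to 0.10 for other pairs. Signs turned only for differences that were not called. Leaving out 1 library gave NR0B2 between 10 and 0 µM -0.083 to 0.40, and between 10 and 5 µM it gave NR1H4 -5.23 to 0.10, FABP6 -0.56 to 0.66, SLC10A2 -3.68 to 0.48, NR1I2 -0.19 to 0.63 and VDR -0.13 to 0.16. Median-of-ratios scaling put VDR at 0.23 there. The causes were not tested. Of the calls on named list genes, leaving out single libraries kept 12 of 15 between 5 and 0 µM, 3 of 11 between 10 and 0 µM and 1 of 5 between 10 and 5 µM.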

Other observations

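The genes most like NR1H4 depend on how its 0 in 10 µM replicate 1 enters. A pseudocount of 1000 was added once the values were known. With it, the highest Pearson correlations over the 9 libraries were those of GSS (0.981), TPT1-AS1 (0.980), ANKRD22 (0.980), GRB7 (0.979) and TMEM125 (0.978), while MCEE was at 0.814 and ALKBH4 at 0.716. These 5 genes were named after their values were seen, and no test was made.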
